A study of Rattus norvegicus with 16 samples.

Results

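The genes described here are 49 rat genes of the cell cycle and of DNA replication, taken from a list of symbols, of which 47 were found among the 32623 genes of the count table. They fall into 4 roles: 17 replication genes, 19 genes of mitosis, 8 genes of G1 control and 3 transcription factors. Ccnb2 and E2f1 were not analysed here. RNA was sequenced from NRK-52E, an epithelial line derived from rat kidney proximal tubule, and NRK-49F, a rat kidney fibroblast line. The lines were kept in indirect co-culture, NRK-52E on permeable filters placed above NRK-49F in wells. After 24 h without added serum they were kept at pH 7.4 (control) or pH 6.0 (acidosis) for 48 h. The titles of the libraries write these as pH7 and pH6. Each of the 4 groups of cell line and pH holds 4 libraries. Cell line and support (filter or well) cannot be told apart in this design. Nothing in the labels says that the 4 libraries of a group came from separate cultures, so the p-values measure only the spread between these samples, which may be technical.

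Cells that enter the cycle pass G1, in which cyclins D and E with their kinases release E2F factors from Rb proteins. The MCM helicase is then loaded on origins and DNA is copied in S phase. Genes of mitosis peak later, driven by MYBL2 and FOXM1 with the MuvB complex, and in quiescent cells the DREAM complex keeps most of these genes low.

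Levels are given in FPM, fragment counts scaled to the library total as in CPM, with TMM factors over the 16 libraries. Values of a group are listed in the order N1, N2, N5, N6 (NRK-52E, pH 7.4), N3, N4, N7, N8 (NRK-52E, pH 6.0), N9, N10, N13, N14 (NRK-49F, pH 7.4) and N11, N12, N15, N16 (NRK-49F, pH 6.0). Fold changes are log2 values of edgeR with their SE, negative where the level was lower at pH 6.0. A gene was called where the FDR was below 0.01 in both edgeR and DESeq2. Alternatives of scaling (library totals as the only scaling, DESeq2 size factors) and the likelihood-ratio test changed the edgeR fit alone. Calls in them still needed the unchanged main fit of DESeq2, with its own size factors, which limits how far calls can shift. Apart from Foxm1, calls gained by 1 tool alone or at an FDR below 0.05 are not given gene by gene. Total counts ran from 16201084 in N12 to 34784862 in N16, and no gene length was used, so levels of different genes are not compared. Among the acidotic NRK-49F libraries N16 stood apart in genes of mitosis, and counts in NRK-49F are also given without it.

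The cell lines were first checked against 11 epithelial markers and the 10 of 11 fibroblast markers found in the table. Ocln, a tight junction gene, measured 42.5, 38.5, 40.5 and 43.0 FPM in NRK-52E at pH 7.4 and 10.3, 8.14, 10.4 and 9.83 at pH 6.0, and at most 0.332 FPM in NRK-49F. Col1a1 measured 6163, 6558, 5644 and 6455 FPM in NRK-49F at pH 7.4 and 25.1, 28.2, 21.4 and 19.6 in NRK-52E, and Prrx1 and Pdgfra were also near 0 in NRK-52E. The markers did not follow the labels throughout. In NRK-52E the epithelial markers Epcam, Krt18, Cldn4, Cldn7, Cdh16, Esrp1 and Grhl2 were below 0.5 FPM in each library. Col3a1, a fibroblast collagen, took the most fragments of the fibroblast markers there, with 6318, 6273, 6193 and 6102 FPM against 409.9, 399, 411 and 612 in NRK-49F at pH 7.4. Thy1 was at 0 in all libraries.

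The summed FPM of the epithelial markers was 508, 471, 432 and 493 in NRK-52E at pH 7.4 and 364, 302, 332 and 309 at pH 6.0. In NRK-49F it was 824, 785, 949 and 843 at pH 7.4 and 207, 221, 204 and 199.6 at pH 6.0. Krt8 took the most fragments of the epithelial markers in both lines, with 821, 782, 947 and 840.0 FPM in NRK-49F at pH 7.4 and 206, 219, 202 and 198 at pH 6.0. The fibroblast markers summed to 6445, 6405, 6304 and 6201 FPM in NRK-52E at pH 7.4 and 3214, 3015, 2625 and 1847 at pH 6.0. In NRK-49F they summed to 7360, 7761, 6783 and 7816 and 9479, 8918, 9592 and 7936 FPM. Both sums were lower at pH 6.0 in NRK-52E without overlap. In NRK-49F the epithelial sum was lower and the fibroblast sum higher at pH 6.0, also without overlap. The epithelial markers Cdh1 and Ocln fell in NRK-52E (-2.31 ± 0.35 and -2.11 ± 0.12) and were not tested within NRK-49F. Their interactions were called, with the more positive pH effect in NRK-49F (-7.66 ± 1.04 and -5.88 ± 1.53). Both genes were too low in NRK-49F to pass the filter there. These interactions therefore rest on very low counts in that line and are not read as a pH effect in it. Most of the fibroblast sum in NRK-49F came from Col1a1, which was not called (0.40 ± 0.11). Of the 8 fibroblast markers tested in NRK-49F, 6 had a lower value at pH 6.0, and the 3 that were called fell: Col3a1 (-3.10 ± 0.28), Lum (-2.06 ± 0.44) and Pdgfrb (-2.01 ± 0.21). The mean over the fibroblast markers of log2(FPM + 1), each less its mean over the 16 libraries, was 1.77, 1.75, 1.77 and 1.88 at pH 7.4 and 0.76, 0.82, 1.20 and 1.43 at pH 6.0 in NRK-49F, so it was lower where the sum was higher. The part of these shifts in the results on cell cycle genes was not tested.

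Acidosis was followed by lower levels of most cell cycle genes in NRK-52E and by higher levels of replication genes in NRK-49F. In NRK-52E, 38 of 47 members were called, against 56.7% of the 13735 genes tested. Of these 31 were lower at pH 6.0, against 28.5% of all genes tested, and 7 were higher, against 28.2%. With library totals as the only scaling in edgeR, 32 were lower and 4 higher. Of all genes tested 4233 were then lower and 2901 higher, against 3916 and 3877 with TMM. The count of members called higher was also 4 without N2, N5 or N6. In NRK-49F, 18 of the 46 members tested were called, close to the 37.8% of all 13339 genes tested, but 15 were higher, against 18.4% of all genes, and 3 were lower, against 19.4%. The NRK-49F count was 11 without N9 (9 higher, 2 lower), 12 without N10 (10 higher, 2 lower) and 22 without N16 (15 higher, 7 lower), and 2 were lower also without N12, N13, N14 or N15. Within number 20 or 21 of the column names, whose meaning is not given in the sources used here, it was 26 (N9 to N12) and 6 (N13 to N16). In NRK-52E it was 28 within number 21 (N1 to N4) and 11 within number 22 (N5 to N8), each with 2 libraries per pH. The share of all genes called in these fits is not given, so the lower counts are not read as particular to the members. Of the calls in NRK-52E, 10 were lost within number 21 and 27 within number 22, and of those in NRK-49F 12 within number 21, while 8 were gained there within number 20. Those kept within number 22 in NRK-52E were Mcm2, Mcm3, Mcm7, Mki67, Top2a, Ccna2, Cdc20, Cenpa, Cenpf, E2f8 and Foxm1, and those kept within 21 in NRK-49F were Mcm2, Mcm3, Mcm4, Cdt1, Fen1 and Mad2l1. The median log2 fold change of all genes tested was 0.00 in both lines. In bulk RNA, fewer cycling cells and less RNA of these genes per cell cannot be told apart.

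The difference between the lines was tested as an interaction in all 16 libraries. It was called for 27 of 47 members, against 36.9% of the 14679 genes tested. In 26 of them the pH effect was more positive in NRK-49F, against 17.5% of all genes, and in Ccnd3 alone it was more positive in NRK-52E, against 19.3%. Such members numbered 0 without N3 or with library totals as the only scaling, so the call of Ccnd3 was lost there (0.48 and 0.40). In those fits the median of all genes in the interaction also moved, to -0.12 and -0.25 from -0.01. Without N16 such members numbered 2, and Tyms was the second (0.68). A fall in NRK-52E together with a rise in NRK-49F, each called, was found for 7 members, all of them replication genes, out of 46 tested in both lines, and for 2.05% of the 12470 genes tested in both. It was also found for 8 of 42 other replication genes, 6 of 63 other mitosis genes and 1 of 23 other genes of G1 and of the Rb and E2F families, so it is not read as confined to replication genes. Without N9 or N10 the NRK-49F calls of 4 of the 7 members (Mcm4, Mcm6, Rrm1 and Prim1) were lost, with values given below.

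**Figure D1:**
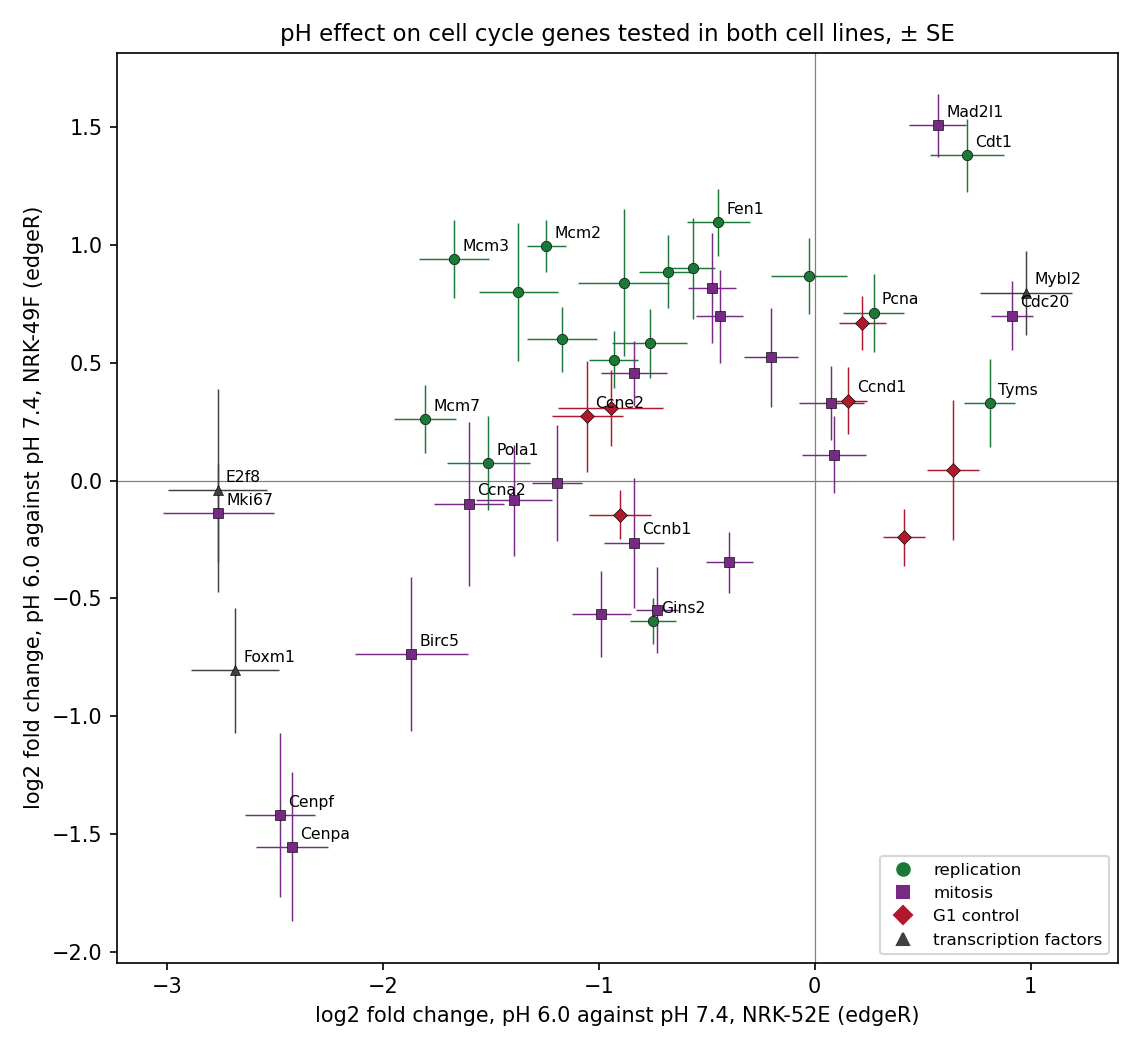
Log2 fold change at pH 6.0 against pH 7.4 in NRK-52E (x axis) and NRK-49F (y axis) of the 46 members tested in both lines, with SE bars and a symbol for each role. Most replication genes lie left of 0 and above 0, while E2f8, Mki67, Foxm1, Cenpf and Cenpa lie farthest to the left.

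The 17 replication genes encode the MCM2 to MCM7 helicase, its loading factors, polymerase and clamp proteins and enzymes of nucleotide synthesis. In NRK-52E, 12 fell, against 28.5% of all genes tested, 2 rose (Cdt1 and Tyms), against 28.2%, and 3 were not called (Pcna, Fen1 and Rfc3), with a median of -0.76. In NRK-49F, 11 rose, against 18.4% of all genes, Gins2 fell, against 19.4%, and 5 were not called, with a median of 0.80. Without N9 or N10, 6 rose, as the calls of Pcna, Mcm4, Mcm6, Rrm1 and Prim1 were lost, with values given below. The interaction was called for 13 of 17, each with the more positive effect in NRK-49F, against 17.5% of all genes.

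Mcm3, a subunit of the helicase (ENSRNOG00000012543, chromosome 9 of rn6), measured 58.0, 55.5, 48.0 and 51.3 FPM at pH 7.4 against 15.4, 17.6, 12.8 and 21.8 at pH 6.0 in NRK-52E, and 26.9, 22.4, 30.5 and 34.3 against 42.2, 49.1, 58.5 and 71.2 FPM in NRK-49F. The pH groups did not overlap in either line, and the order was opposite. The log2 fold change was -1.67 ± 0.16 (adjusted p = 6.17e-06) in NRK-52E and 0.94 ± 0.16 (adjusted p = 0.000483) in NRK-49F, with an interaction of -2.63 ± 0.25 (adjusted p = 1.48e-07). Where all 4 libraries of a pH lay above the other 4, the exact two-sided permutation p of a gene was 0.0286, the smallest that 4 against 4 libraries can give.

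Mcm7, of the same helicase, measured 83.6, 82.2, 76.1 and 80.8 FPM at pH 7.4 against 20.98, 22.5, 19.4 and 30.6 at pH 6.0 in NRK-52E, and 53.2, 52.8, 67.2 and 66.5 against 57.8, 65.7, 73.1 and 93.5 FPM in NRK-49F. All acidotic NRK-52E libraries lay below the controls, whereas the NRK-49F groups overlapped. Mcm7 fell by 1.80 on the log2 scale in NRK-52E (-1.80 ± 0.14, adjusted p = 1.68e-06), and its value in NRK-49F was 0.26 ± 0.14 (adjusted p = 0.146), or 0.12 without N16. The interaction was -2.08 ± 0.21 (adjusted p = 4.07e-07).

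Of the other helicase subunits, Mcm2 (-1.24 and 0.99), Mcm4 (-0.56 and 0.90), Mcm5 (-0.68 and 0.89) and Mcm6 (-1.17 and 0.60) fell in NRK-52E and rose in NRK-49F. The same held for Rrm1, the large subunit of ribonucleotide reductase (-0.93 and 0.51), and Prim1, the primase (-0.76 and 0.58). The NRK-49F calls were lost for Mcm4 without N9, N10, N13 or N15 (0.89, 0.80, 0.94 and 0.90), Mcm6 without N9, N10 or N15 (0.57, 0.54 and 0.59), Rrm1 without N9 or N10 (0.48 and 0.50) and Prim1 without N9, N10, N14 or N15 (0.57, 0.55, 0.55 and 0.60). In NRK-52E that of Prim1 was lost without N3 (-0.69) and that of Mcm4 in the fit of all 16 libraries (-0.58). Cdc6, which loads the helicase, and Rrm2 fell in NRK-52E (-1.37 and -0.89) and were not called in NRK-49F (0.80 and 0.84). Cdc6 was called as a rise in NRK-49F with the number as covariate (0.87) and within number 20 (1.24), and Rrm2 measured 0.36 there without N16. The call of Rrm2 was lost without N2 (-0.85) and in the fit of all 16 libraries (-0.89). Gins2, of the GINS complex, fell in both lines (-0.75 and -0.60).

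Cdt1, the partner of Cdc6 in loading the helicase, went another way. It measured 25.2, 22.1, 19.2 and 19.8 FPM at pH 7.4 against 48.6, 33.4, 31.1 and 29.5 at pH 6.0 in NRK-52E, and 10.8, 12.8, 13.7 and 17.9 against 31.4, 34.0, 37.9 and 41.9 FPM in NRK-49F. The acidotic libraries lay above the controls in both lines. Cdt1 rose by 0.71 ± 0.17 (adjusted p = 0.00353) in NRK-52E and 1.38 ± 0.15 (adjusted p = 1.74e-05) in NRK-49F, and the interaction was not called (-0.69 ± 0.24, adjusted p = 0.0249), but it was without N3 or N14 (-0.98 and -0.84) and with the number as covariate (-0.70). Without N3 the median of all genes in the interaction was -0.12. The call in NRK-52E was lost without N2, N5 or N6 (log2 values 0.71, 0.63 and 0.64) and with library totals as the only scaling (0.49). Tyms, thymidylate synthase, also rose in NRK-52E (0.81 ± 0.12).

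Fen1, the flap endonuclease of Okazaki fragments, measured 24.6, 24.1, 24.0 and 25.0 FPM at pH 7.4 against 14.7, 19.1, 16.1 and 22.6 at pH 6.0 in NRK-52E, and 11.8, 12.6, 13.96 and 16.2 against 27.2, 25.6, 28.9 and 36.2 FPM in NRK-49F. The groups did not overlap in either line. Its rise in NRK-49F was 1.10 ± 0.14 (adjusted p = 5.31e-05), and the lower value in NRK-52E was not called (-0.45 ± 0.15, adjusted p = 0.0184), although it was called without N8 (-0.58), with library totals as the only scaling (-0.65) and in the fit of all 16 libraries (-0.46). The interaction was -1.56 ± 0.21 (adjusted p = 7.95e-06).

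Pola1, the catalytic subunit of polymerase alpha, measured 19.4, 21.5, 21.1 and 20.8 FPM at pH 7.4 against 5.20, 8.68, 6.03 and 9.40 at pH 6.0 in NRK-52E, and 20.98, 19.0, 17.7 and 19.3 against 13.9, 16.9, 20.2 and 30.7 FPM in NRK-49F. It was separated by pH in NRK-52E and interleaved in NRK-49F, with N16 above all other NRK-49F libraries. The values were -1.51 ± 0.19 (adjusted p = 4.6e-05) and 0.07 ± 0.20 (adjusted p = 0.772), and the interaction -1.60 ± 0.29 (adjusted p = 0.000215). Pola1 in NRK-49F ran from -0.19 without N16 to 0.22 without N11, and was -0.38 within number 20, 0.44 within number 21 and 0.04 with the number as covariate.

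Rfc3, a subunit of the clamp loader, measured 11.6, 12.3, 11.1 and 12.1 FPM at pH 7.4 against 10.8, 12.1, 8.77 and 15.1 at pH 6.0 in NRK-52E, and 10.46, 13.04, 17.2 and 11.8 against 21.6, 27.3, 24.0 and 23.7 FPM in NRK-49F. The NRK-52E groups overlapped and the NRK-49F groups did not. The values were -0.03 ± 0.18 (adjusted p = 0.903) in NRK-52E and 0.87 ± 0.16 (adjusted p = 0.000751) in NRK-49F, with an interaction of -0.91 ± 0.24 (adjusted p = 0.004) that was not called without N9 (-0.82). Rfc3 in NRK-52E ran from -0.18 without N8 to 0.10 without N7, and was -0.10 within number 21, 0.03 within number 22 and -0.24 with library totals as the only scaling.

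Pcna, the sliding clamp, measured 99.6, 94.1, 85.2 and 95.5 FPM at pH 7.4 against 104, 96.4, 106 and 150.1 at pH 6.0 in NRK-52E, and 89.9, 82.3, 120.4 and 93.5 against 124, 147, 151 and 217 FPM in NRK-49F. In NRK-52E N3, N7 and N8 lay above the controls and N4 among them, and in NRK-49F all acidotic libraries lay above the controls. The rise in NRK-49F was 0.71 ± 0.17 (adjusted p = 0.00325) and was not called without N9, N10 or N14 (0.67, 0.65 and 0.69). In NRK-52E the value was 0.27 ± 0.14 (adjusted p = 0.106), 0.10 without N8, 0.01 within number 21, 0.49 within number 22 and 0.06 with library totals as the only scaling, and the interaction was not called (-0.46 ± 0.23, adjusted p = 0.104).

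The 19 genes of mitosis include cyclins and kinases of the G2 to M transition, the spindle checkpoint, kinesins and centromere proteins. In NRK-52E, 14 fell, against 28.5% of all genes tested, Cdc20 and Mad2l1 rose, against 28.2%, and Cdk1, Aurka and Kif11 were not called, with a median of -0.84. In NRK-49F, Cenpa and Cenpf fell and Mad2l1 and Cdc20 rose, smaller shares than the 19.4% and 18.4% of all genes, and 15 were not called, with a median of -0.08. Without N16 the count that fell in NRK-49F was 5, against 19.2%, and the median -0.43. Bub1 (0.70) and Bub1b (0.82), among the 15, were called as rises under several alternatives. For Bub1 these were the fits without N13 or N15 (0.80 and 0.82), with library totals or DESeq2 size factors (0.75 and 0.70), without a filter or with one of 1 CPM (0.71 and 0.71), with the likelihood-ratio test (0.69) and of all 16 libraries (0.70). For Bub1b they were those without N12 or N14 (0.92 and 1.05), without a filter (0.83), with the likelihood-ratio test (0.82), with the number as covariate (0.83), within number 20 (0.97) and of all 16 libraries (0.82). Cdc25c was called as a rise with library totals (0.50) and the likelihood-ratio test (0.46), and Cdk1 within number 20 (0.45). Called as falls were Birc5 with the number as covariate (-0.82), Birc5, Kif20a and Kif23 within number 20 (-1.09, -0.48 and -0.75), Kif23 and Plk1 in the fit of all 16 libraries (-0.55 and -0.57) and Plk1 with the likelihood-ratio test (-0.57). The interaction was called for 8 of 19, a share near the 36.9% of all genes, but each had the more positive effect in NRK-49F, against 17.5%. That of Ccna2 (-1.52 ± 0.42) was not called without N2, N6, N7, N9 or N10 (-1.49, -1.53, -1.46, -1.45 and -1.42).

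Mki67, the antigen of the Ki-67 proliferation stain (ENSRNOG00000028137, chromosome 1), measured 84.2, 94.4, 85.2 and 86.9 FPM at pH 7.4 against 6.05, 18.1, 12.1 and 16.03 at pH 6.0 in NRK-52E, and 37.5, 36.1, 41.3 and 46.1 against 25.7, 32.8, 31.2 and 57.9 FPM in NRK-49F. The acidotic NRK-52E libraries lay far below the controls, and in NRK-49F 3 acidotic libraries lay below the controls and N16 above them. Mki67 changed by -2.76 ± 0.26 (adjusted p = 4.97e-06) in NRK-52E. In NRK-49F the value was -0.14 ± 0.21 (adjusted p = 0.599), and the interaction was -2.64 ± 0.35 (adjusted p = 8.55e-06). Mki67 in NRK-49F ran from -0.44 without N16 to 0.00 without N11, and was -0.34 within number 20 and 0.01 within number 21.

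Cenpf, a kinetochore protein, measured 44.7, 41.1, 42.5 and 38.4 FPM at pH 7.4 against 6.42, 9.62, 5.86 and 8.42 at pH 6.0 in NRK-52E, and 16.3, 14.1, 18.7 and 22.4 against 3.19, 5.31, 4.94 and 13.3 FPM in NRK-49F. All acidotic libraries were below the controls of their line. The fall was -2.48 ± 0.16 (adjusted p = 5.02e-07) in NRK-52E and -1.42 ± 0.35 (adjusted p = 0.00454) in NRK-49F. The second call was lost without N9, N10, N12, N13, N14 or N15 (log2 values -1.47, -1.51, -1.33, -1.39, -1.30 and -1.28).

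Cenpa, the histone H3 variant of centromeres, measured 14.2, 14.99, 13.1 and 15.2 FPM at pH 7.4 against 2.08, 2.74, 3.20 and 2.82 at pH 6.0 in NRK-52E, and 5.60, 6.22, 8.43 and 8.26 against 1.33, 2.5, 1.75 and 4.13 FPM in NRK-49F. The groups were separated in both lines. The fall was -2.42 ± 0.17 (adjusted p = 6.45e-07) and -1.55 ± 0.32 (adjusted p = 0.00136). Neither Cenpa nor Cenpf had a called interaction (-0.88 ± 0.37 and -1.07 ± 0.42), but that of Cenpf was called without N11 (-1.31).

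Mad2l1, of the spindle checkpoint, measured 13.3, 10.2, 9.87 and 11.6 FPM at pH 7.4 against 17.2, 16.8, 17.0 and 16.6 at pH 6.0 in NRK-52E, and 9.32, 9.15, 10.9 and 11.4 against 29.4, 24.8, 28.8 and 34.0 FPM in NRK-49F. The acidotic libraries were above the controls in both lines. The rise was 0.57 ± 0.13 (adjusted p = 0.00276) in NRK-52E and 1.51 ± 0.13 (adjusted p = 2.67e-06) in NRK-49F, with an interaction of -0.95 ± 0.19 (adjusted p = 0.000384). The NRK-52E call was lost without N2, N5 or N6 (0.52, 0.49 and 0.56) and with library totals as the only scaling (0.36). Cdc20, which activates the anaphase-promoting complex, rose by 0.91 ± 0.10 and 0.70 ± 0.14.

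The mitosis genes that fell in NRK-52E and are not given by library ran from Birc5, of the chromosomal passenger complex (-1.87 ± 0.26), over Ccna2, cyclin A2 (-1.60 ± 0.16), the mitotic kinase Aurkb (-1.39 ± 0.17) and Plk1 (-0.99 ± 0.14), to Kif20a, a kinesin of cytokinesis (-0.40 ± 0.11). The call of Kif20a was lost without N1, N2, N3, N6 or N7 (-0.35, -0.38, -0.33, -0.44 and -0.38) and with the number as covariate (-0.39). That of Bub1 (-0.44 ± 0.11) was lost without N2, N3, N5, N6 or N7 (-0.44, -0.42, -0.42, -0.46 and -0.43). For Bub1b (-0.47 ± 0.11) it was lost without N1 or N7 (-0.42 and -0.46). Both calls were also lost in the fit of all 16 libraries (-0.45 and -0.485).

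Top2a, topoisomerase II alpha, measured 110.3, 114, 120.5 and 113 FPM at pH 7.4 against 42.8, 61.2, 45.6 and 53.6 at pH 6.0 in NRK-52E, and 45.6, 44.4, 60.9 and 62.1 against 39.5, 37.5, 45.9 and 90.5 FPM in NRK-49F. It was separated by pH in NRK-52E, while in NRK-49F N16 stood above the controls, N15 lay at their lower end and N11 and N12 below them. The values were -1.19 ± 0.11 (adjusted p = 5.8e-06) and -0.01 ± 0.25 (adjusted p = 0.975), and the interaction -1.20 ± 0.30 (adjusted p = 0.00309). Top2a in NRK-49F ran from -0.39 without N16 to 0.12 without N12, and was -0.22 within number 20, 0.13 within number 21 and -0.05 with the number as covariate.

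Ccnb1, the mitotic cyclin, measured 24.4, 24.9, 20.98 and 23.7 FPM at pH 7.4 against 10.8, 13.4, 13.6 and 15.51 at pH 6.0 in NRK-52E, and 9.66, 7.12, 12.4 and 10.52 against 6.07, 6.83, 6.21 and 14.1 FPM in NRK-49F. Its NRK-52E groups did not overlap, and in NRK-49F N16 lay above the controls and the other 3 acidotic libraries below them. The values were -0.84 ± 0.14 (adjusted p = 0.000284) and -0.26 ± 0.28 (adjusted p = 0.44), with no called interaction (-0.59 ± 0.33). Ccnb1 in NRK-49F ran from -0.65 without N16 to -0.13 without N15. Its kinase Cdk1 measured 68.8, 53.5, 53.3 and 59.0 FPM at pH 7.4 against 63.1, 52.3, 54.3 and 80.2 at pH 6.0 in NRK-52E, and 34.4, 30.7, 45.9 and 35.6 against 41.8, 46.7, 38.5 and 58.8 FPM in NRK-49F. Its groups overlapped in both lines, and the values were 0.08 ± 0.15 (adjusted p = 0.664) and 0.33 ± 0.16 (adjusted p = 0.0934), the second 0.20 without N16 and called within number 20 (0.45). Cdk1 in NRK-52E ran from -0.08 without N8 to 0.15 without N7, and was -0.12 within number 21, 0.25 within number 22 and -0.14 with library totals as the only scaling.

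Library N16 stood apart from the other acidotic NRK-49F libraries in this role. The score of a role was the mean over its genes of log2(FPM + 1), each gene less its mean over the 16 libraries. For mitosis it was 0.83, 0.73, 0.64 and 0.67 in NRK-52E at pH 7.4 and -0.28, 0.02, -0.18 and 0.02 at pH 6.0. In NRK-49F it was -0.41, -0.46, -0.13 and -0.12 at pH 7.4 and -0.58, -0.48, -0.47 and 0.21 at pH 6.0. N16 was also the deepest library, with 34784862 counts. N15, with a score of -0.47, held 34314389. The part of depth was not tested. Without N16, the mitosis genes that fell in NRK-49F were Birc5, Cenpa, Cenpf, Kif20a and Kif23, where 19.2% of all genes tested fell. In that fit 2 rose, where 17.5% of all genes rose.

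For replication the score was 0.26, 0.22, 0.14 and 0.16 in NRK-52E at pH 7.4 and -0.52, -0.45, -0.63 and -0.31 at pH 6.0. In NRK-49F it was -0.29, -0.30, -0.07 and -0.04 and 0.17, 0.30, 0.50 and 0.85. The pH groups did not overlap in either line, and in NRK-49F N16 was again highest. Without it, 11 replication genes still rose, Gins2 fell, and the median was 0.54. At pH 7.4 the NRK-49F libraries whose column names carry the number 20 (N9, N10) had lower replication and mitosis scores than those with 21 (N13, N14). Within number 20 the median of replication genes in NRK-49F was 0.62 and that of mitosis genes -0.22. Within number 21 these medians were 0.73 and 0.08. In NRK-52E the medians of replication genes were -0.86 within number 21 and -0.71 within number 22, and those of mitosis genes were -0.91 and -0.68.

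**Figure D2:**
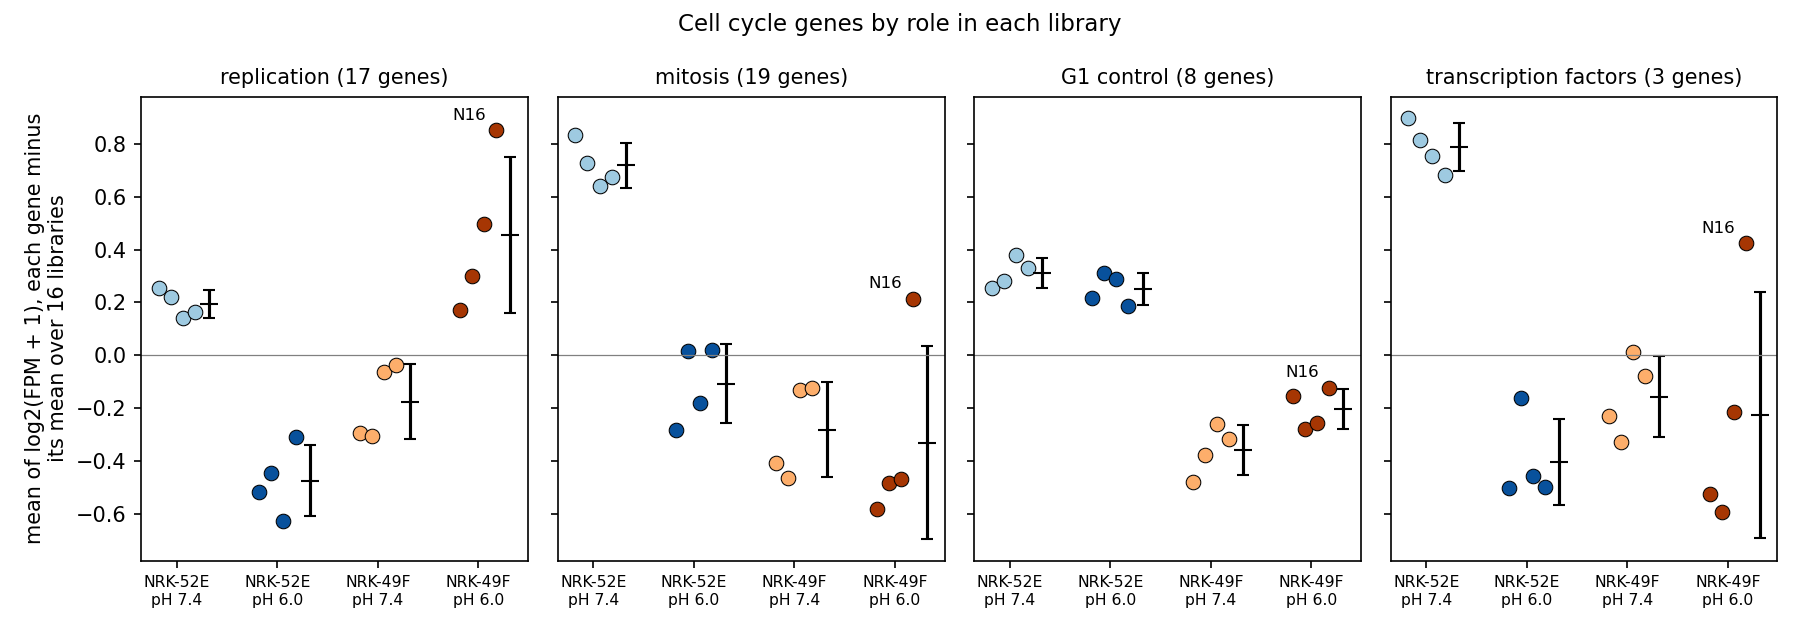
Mean log2(FPM + 1) of the genes of each role, each gene less its mean over 16 libraries (y axis), in each library of the 4 groups, with the mean and SD of the 4 libraries beside the points. NRK-52E was lower at pH 6.0 for replication and mitosis without overlap, NRK-49F was higher for replication, and N16 lay apart for mitosis at 0.21.

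The 8 G1 control genes encode cyclins D and E and their kinases. In NRK-52E, 2 rose (Ccnd3 and Ccne1) and 3 fell (Ccne2, Cdk4 and Cdk6), near the 28.2% and 28.5% of all genes tested, and 3 were not called, with a median of 0.19 (-0.02 with library totals as the only scaling, which moved the median of all genes to -0.21; 0.19 relative to that). In NRK-49F, Cdk2 rose, near the 18.4% of all genes, and 6 were not called, with a median of 0.27. Ccnd3, cyclin D3, rose by 0.41 ± 0.10 in NRK-52E, against -0.24 ± 0.12 (not called) in NRK-49F, with an interaction of 0.64 ± 0.16 (adjusted p = 0.00316). That interaction was not called without N3 or with library totals as the only scaling (0.48 and 0.40). There the median of all genes in the interaction moved to -0.12 and -0.25. The NRK-52E call was lost without N2, N3, N5 or N6 (0.41, 0.36, 0.36 and 0.34) and with library totals (0.20). Ccnd2 was not tested in NRK-49F, where it reached at most 0.219 FPM, and measured 4.73, 6.84, 11.1 and 10.4 FPM at pH 7.4 and 11.2, 17.3, 23.9 and 8.04 at pH 6.0 in NRK-52E. It was not called there, but was without N8 (1.05).

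Ccnd1, cyclin D1 (ENSRNOG00000020918, chromosome 1), measured 427, 420.5, 399 and 407 FPM at pH 7.4 against 496, 493, 471 and 409 at pH 6.0 in NRK-52E, and 1101, 1049, 1027 and 1162 against 1823, 1328, 1264 and 1121 FPM in NRK-49F. The pH groups overlapped in both lines. The values, 0.16 ± 0.08 (adjusted p = 0.12) and 0.34 ± 0.14 (adjusted p = 0.0597), were not called, nor was the interaction (-0.19 ± 0.17). Within number 20 the NRK-49F value was called (0.55), within number 21 it was 0.10, and without N11 0.18. The NRK-52E value was -0.05 with library totals as the only scaling.

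Ccne2, a cyclin of the G1 to S transition, measured 17.9, 19.9, 22.3 and 18.6 FPM at pH 7.4 against 10.9, 9.76, 7.25 and 10.6 at pH 6.0 in NRK-52E, and 6.34, 7.73, 7.24 and 5.30 against 6.24, 7.56, 6.34 and 12.2 FPM in NRK-49F. It was separated by pH in NRK-52E only. The values were -1.05 ± 0.16 (adjusted p = 0.000197) and 0.27 ± 0.24 (adjusted p = 0.35), and the interaction -1.34 ± 0.29 (adjusted p = 0.00102). Ccne2 in NRK-49F ran from 0.00 without N16 to 0.39 without N15, and was -0.04 within number 20 and 0.55 within number 21. Its relative Ccne1 measured 11.6, 10.7, 10.6 and 10.47 FPM at pH 7.4 against 18.5, 17.3, 16.48 and 16.2 at pH 6.0 in NRK-52E, and 1.66, 2.48, 3.62 and 4.51 against 3.85, 3.12, 3.38 and 2.53 FPM in NRK-49F. The acidotic NRK-52E libraries lay above the controls, and the NRK-49F groups overlapped. Ccne1 rose by 0.64 ± 0.12 (adjusted p = 0.000677) in NRK-52E, which was not called in the fit of all 16 libraries (0.63). Its value in NRK-49F was 0.05 ± 0.30, and the interaction was not called (0.59 ± 0.31). Ccne1 in NRK-49F ran from -0.16 without N9 to 0.30 without N14, and was 0.75 within number 20, -0.49 within number 21 and 0.09 with the number as covariate.

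Cdk6, a kinase of D cyclins, measured 7.68, 10.6, 13.6 and 10.04 FPM at pH 7.4 against 3.73, 7.55, 6.19 and 4.61 at pH 6.0 in NRK-52E, and 6.86, 9.35, 8.95 and 7.79 against 9.21, 9.48, 10.4 and 12.1 FPM in NRK-49F. The NRK-52E groups were separated by a narrow gap and the NRK-49F groups overlapped. The values were -0.94 ± 0.24 (adjusted p = 0.0052) and 0.31 ± 0.16 (adjusted p = 0.125), the second 0.20 within number 20, with an interaction of -1.26 ± 0.30 (adjusted p = 0.00177). The NRK-52E call was lost without N2, N3, N5, N6 or N7 (-0.94, -0.81, -0.81, -0.98 and -0.99). The related Cdk4 fell in NRK-52E (-0.90 ± 0.14, adjusted p = 0.000241).

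Cdk2, the partner of cyclin E, measured 32.7, 27.0, 26.9 and 30.5 FPM at pH 7.4 against 35.5, 31.4, 34.4 and 36.9 at pH 6.0 in NRK-52E, and 18.4, 21.02, 21.5 and 17.7 against 31.6, 29.8, 29.5 and 35.3 FPM in NRK-49F. The NRK-49F groups did not overlap and the NRK-52E groups did. The values were 0.22 ± 0.11 (adjusted p = 0.0934) and 0.67 ± 0.12 (adjusted p = 0.000468), and the interaction was not called (-0.46 ± 0.15, adjusted p = 0.0176). It was called without N3 and with library totals as the only scaling (-0.59 and -0.70). In those fits the median of all genes in the interaction moved the same way, to -0.12 and -0.25. The NRK-52E value was 0.12 within number 21 and 0.01 with library totals.

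Of the 3 transcription factors, E2f8 and Foxm1 fell and Mybl2 rose in NRK-52E, and Mybl2 rose in NRK-49F. Foxm1, an activator of mitosis genes (ENSRNOG00000005936, chromosome 4), measured 24.7, 24.2, 24.5 and 24.9 FPM at pH 7.4 against 2.51, 4.14, 3.48 and 5.27 at pH 6.0 in NRK-52E, and 10.6, 12.9, 14.2 and 16.8 against 5.80, 5.37, 6.89 and 13.2 FPM in NRK-49F. Acidotic NRK-52E libraries lay far below the controls, and in NRK-49F N16 alone reached the range of the controls. Foxm1 changed by -2.68 ± 0.20 (adjusted p = 1.14e-06) in NRK-52E. It was not called in NRK-49F (-0.81 ± 0.26, adjusted p = 0.0219). It was called there without N16 (-1.18), with the number as covariate (-0.85), with the likelihood-ratio test (-0.81) and within number 20 (-1.07), and also in DESeq2 alone and at an FDR below 0.05. The interaction was -1.89 ± 0.36 (adjusted p = 0.000256).

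E2f8, an atypical E2F that represses transcription, measured 8.11, 8.23, 8.62 and 8.09 FPM at pH 7.4 against 1.04, 1.84, 0.943 and 1.08 at pH 6.0 in NRK-52E, and 2.5, 1.77, 2.57 and 1.58 against 1.24, 0.862, 1.62 and 4.25 FPM in NRK-49F. The NRK-52E groups were far apart and the NRK-49F groups overlapped. The values were -2.77 ± 0.23 (adjusted p = 2.04e-06) and -0.04 ± 0.43 (adjusted p = 0.944), with an interaction of -2.74 ± 0.52 (adjusted p = 0.00029). E2f8 in NRK-49F ran from -0.72 without N16 to 0.18 without N12, and was -0.99 within number 20, 0.51 within number 21 and -0.17 with the number as covariate. Mybl2, which binds the MuvB complex, measured 15.7, 13.03, 10.7 and 9.57 FPM at pH 7.4 against 28.6, 28.3, 25.7 and 15.4 at pH 6.0 in NRK-52E, and 8.12, 6.82, 10.3 and 10.1 against 12.3, 13.7, 17.6 and 18.4 FPM in NRK-49F. In NRK-52E the groups overlapped through N8, and in NRK-49F they were separated. Mybl2 rose by 0.98 ± 0.21 (adjusted p = 0.00186) and 0.80 ± 0.18 (adjusted p = 0.0026), and the second call was lost without N9 or N15 (0.75 and 0.74).

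**Figure D3:**
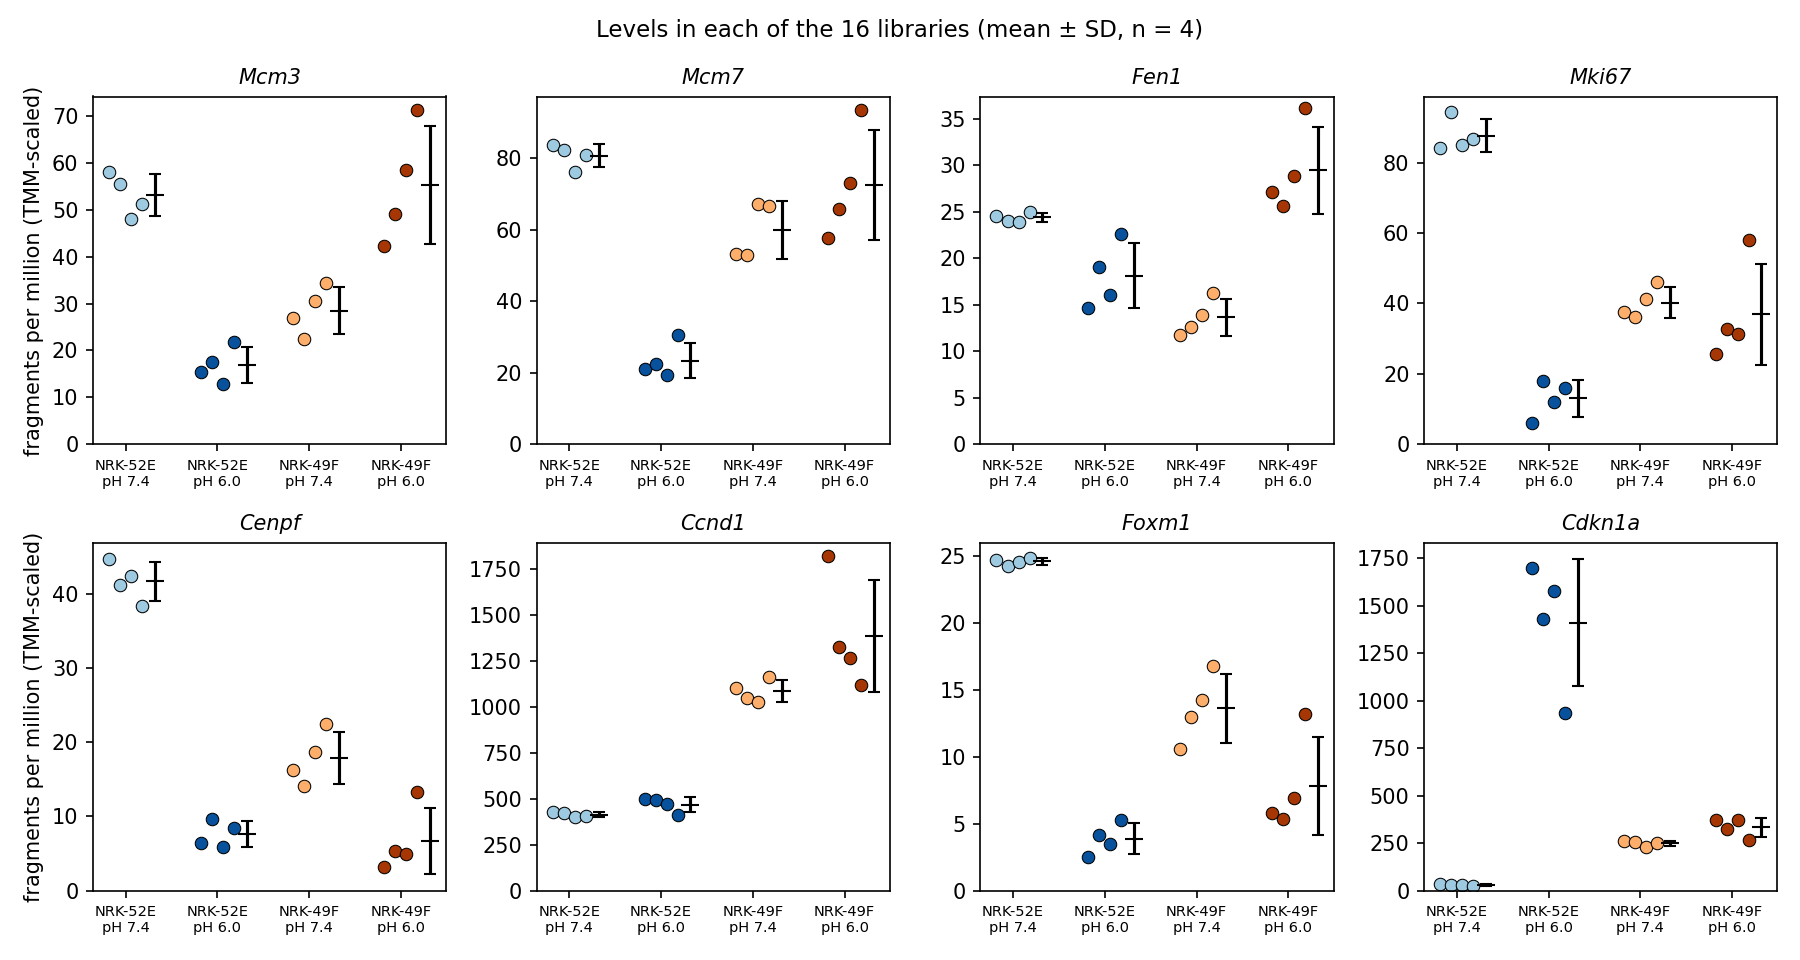
FPM (linear y axes from 0) of 8 genes in each library of the 4 groups, with the mean and SD (n = 4) beside the points. Mcm3 was lower at pH 6.0 in NRK-52E and higher in NRK-49F, Mki67 and Foxm1 were lower in NRK-52E, and Cdkn1a was higher there.

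The other genes of these pathways were taken as lists. Of 42 other replication genes, 19 fell, against 28.5% of all genes tested, and 5 rose, against 28.2%, in NRK-52E (median -0.59). With library totals as the only scaling 23 fell and 3 rose. In NRK-49F 23 were called, each higher at pH 6.0, against 18.4% of all genes (median 0.73), and 18 rose without N16, against 17.5%. The fall was largest for Asf1b, a histone chaperone (-2.39 ± 0.26), and Clspn, a checkpoint adaptor (-2.39 ± 0.26), and the rise for Dbf4, the activator of Cdc7 (2.17 ± 0.11), and Tipin (1.48 ± 0.13). Mcm8 (1.85 ± 0.20) and Dbf4 (1.69 ± 0.14) rose most in NRK-49F.

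Of 63 other mitosis genes, 31 fell, against 28.5% of all genes, and 11 rose, against 28.2%, in NRK-52E (median -0.63). With library totals as the only scaling 34 fell and 5 rose. In NRK-49F, 17 were called, each higher at pH 6.0, against 18.4% of all genes (median 0.33). Without N16 15 rose, against 17.5%, and 9 fell, a smaller share than the 19.2% of all genes (median 0.08). Ncaph, of condensin (-2.74 ± 0.29), and Hjurp, the chaperone of CENP-A (-2.54 ± 0.18), fell most in NRK-52E, and Gtse1 (2.99 ± 0.17) and Cks2 (2.37 ± 0.11) rose most. Cks2 (1.89 ± 0.14) and Kntc1 (1.45 ± 0.23) rose most in NRK-49F.

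Of 23 other genes of G1 and of the Rb and E2F families, 11 rose, against 28.2% of all genes, and 7 fell, a share near the 28.5% of all genes, in NRK-52E (median 0.48). With library totals as the only scaling 9 rose and 9 fell. In NRK-49F 9 rose, against 18.4% of all genes, and Rbl2 fell, against 19.4% (median 0.45). Mybl1 rose in both lines (3.05 ± 0.21 and 2.19 ± 0.14). E2f7, the relative of E2f8, fell in NRK-52E (-2.75 ± 0.43), as did E2f2 (-1.01 ± 0.22), while Lin37 rose (1.38 ± 0.17). Myc, an activator of growth genes, was the 1 gene of this list that fell in NRK-52E (-0.60 ± 0.15, adjusted p = 0.00443) and rose in NRK-49F (1.93 ± 0.16), with an interaction of -2.55 ± 0.23 (adjusted p = 9.25e-08). Its call in NRK-52E was lost without N1, N2, N4 or N7 (-0.56, -0.58, -0.59 and -0.54). The fall of Rbl2 in NRK-49F (-0.51 ± 0.12) was lost without N9, N10, N11 or N15 (-0.45, -0.49, -0.46 and -0.50). Calls of named genes of these lists lost within a number were those of Asf1b, Clspn, Kntc1, E2f2, Myc, Rbl2 and Cdkn2c in NRK-52E within 22, of E2f2 and Myc there within 21, and of Clspn, Gtse1, Rbl2 and Cdkn1b in NRK-49F within 21.

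Among the CDK inhibitors, Cdkn1a, which encodes p21, measured 36.5, 27.5, 27.1 and 25.2 FPM at pH 7.4 against 1700, 1431, 1578 and 937 at pH 6.0 in NRK-52E, and 262, 254, 232 and 251 against 369.5, 326, 369.6 and 264 FPM in NRK-49F. The NRK-52E groups were far apart, and in NRK-49F the acidotic libraries lay above the controls, N16 by a small margin. The rise in NRK-52E was 5.58 ± 0.21 (adjusted p = 3.23e-08) with an interaction of 5.17 ± 0.24 (adjusted p = 6.26e-11). In NRK-49F the value was 0.40 ± 0.11 (adjusted p = 0.0104), not called in the 8 libraries but called without N16 (0.50), with library totals as the only scaling (0.44), without a filter or with one of 1 CPM (0.41 each), with the number as covariate (0.40) and within number 20 (0.43). Cdkn2c fell in both lines (-1.42 ± 0.15 and -1.61 ± 0.29), and Cdkn1b, which encodes p27, fell in NRK-49F (-0.82 ± 0.09). Cdkn2d was not analysed here, Cdkn2b was at 0 in all libraries, and Cdkn1c and Cdkn2a were too low to be tested.

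The cell lines were also compared at each pH. At pH 7.4, 29 of 47 members were called, against 59.8% of 14679 genes tested: 28 were higher in NRK-52E, against 27.9% of all genes, and Ccnd1 was lower (-1.39 ± 0.13), against 31.9%. By role, 16 of 19 mitosis genes, 6 of 17 replication genes, 4 of 8 G1 control genes and 2 of 3 transcription factors (Foxm1 and E2f8) were higher in NRK-52E. The G1 control genes counted include Ccnd2, which was too low to be tested within NRK-49F. In a fit of the 8 libraries of pH 7.4, Mcm4, Mcm7, Rrm1, Rrm2 and Tyms were gained as higher (0.41, 0.51, 0.42, 0.47 and 0.48) and Mcm6 as lower (-0.36). Mcm7, Rrm1 and Tyms were also gained without N3 and with library totals. The median of all genes was then 0.08 and 0.335. The call of Foxm1 was lost without N6, N9 or N10 (0.85, 0.74 and 0.82) and that of Cdt1 without N1, N9 or N10 (0.56, 0.54 and 0.60). Among mitosis genes the largest difference was that of Cdc20 (2.65 ± 0.12).

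At pH 6.0, 28 members were called, against 63.2% of all genes. Of these 20 were lower in NRK-52E, against 32.5%, and 8 were higher, against 30.7%. With DESeq2 size factors 14 were higher and 20 lower, and with library totals 14 and 19. Of all genes tested, 4891 were higher and 4632 lower with size factors and 5032 and 4318 with library totals, against 4504 and 4772. Without N16 13 members were higher and 19 lower, with Ccna2, Ccnb1, Cdk1, Cenpf and Kif11 gained (0.64, 1.04, 0.54, 0.74 and 0.81). The lower ones included 12 of 17 replication genes (median -1.15) but 4 of 19 mitosis genes (Mki67, Cdc25c, Mad2l1 and Birc5), where 4 others were higher (median 0.15). The call of Birc5 was lost without N3, N4, N7, N15 or N16 (-1.09, -1.07, -0.93, -1.14 and -0.67), with the number as covariate (-0.47), with library totals as the only scaling (-0.97) and in the 8 libraries of pH 6.0 (-1.11), against -1.12. With the number as covariate 11 members were higher and 17 lower. The all-gene medians were -0.05 at pH 7.4 and -0.02 at pH 6.0.

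Promoters are shown because most of the replication and mitosis genes called in NRK-52E fell there. RefSeq promoters (GRCr8) of 300 bases, 250 before and 50 after the gene start, were matched by symbol for 36 of 47 members. Mcm4, Cdc6, Rrm2, Ccna2, Aurkb, Ccnd1, Ccnd2, Ccne2, Cdk6, E2f8 and Foxm1 were not matched. The letters searched on both strands were an E2F motif (TTTCGCGC, TTTGGCGC, TTTCCCGC or TTTGCCGC), the cell cycle homology region or CHR (TTTGAA or TTCGAA) and CCAAT. The E2F motif was found in 9 of 14 replication promoters, 1 of 17 mitosis promoters and 0 of 4 G1 control promoters, against 2.14% of all 33469 promoters. The CHR was found in 12 of 17 mitosis, 4 of 14 replication and 0 of 4 G1 control promoters, against 19.7%. CCAAT was found in 13 of 17, 10 of 14 and 2 of 4, against 37.5%. The Mybl2 promoter held none of them. In 2 members matches of different motifs overlapped. Matches were not confined to genes that fell in NRK-52E. The E2F letters were also in Cdt1 and Tyms, which rose there, and in Rfc3, which was not called. Gins2, Rrm1 and Prim1 fell without them. The CHR letters were also in Cdc20 and Mad2l1, which rose, while Ccnb1, Bub1 and Kif20a fell without them. Whether a match goes with a fall was not tested. A match describes letters and not a bound site.

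Stretches from before the gene start are shown for the members given above by library whose promoter held the motif of their role there, with the match nearest the start in capitals, read along the strand of the gene, where the capitals may be the reverse complement of the letters searched. The first pair hold the E2F letters and come from replication genes that fell in NRK-52E.
Mcm7, chr12:22163199-22163254, minus strand: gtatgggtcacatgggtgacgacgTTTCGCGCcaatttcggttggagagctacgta
Pola1, chrX:62342496-62342551, minus strand: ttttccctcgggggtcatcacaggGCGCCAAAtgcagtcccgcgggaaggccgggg
The next stretches hold the CHR letters. Mki67, Top2a and Cenpa fell in NRK-52E and Cdk1 was not called.
Mki67, chr1:199952663-199952716, minus strand: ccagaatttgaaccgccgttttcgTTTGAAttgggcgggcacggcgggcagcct
Top2a, chr10:84473094-84473139, minus strand: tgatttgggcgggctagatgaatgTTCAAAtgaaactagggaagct
Cdk1, chr20:19265253-19265292, plus strand: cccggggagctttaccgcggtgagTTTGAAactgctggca
Cenpa, chr6:31431639-31431692, minus strand: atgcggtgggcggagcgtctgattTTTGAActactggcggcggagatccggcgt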

How the data were processed

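Poly(A) RNA of 16 libraries was sequenced and mapped to rn6. The study's methods name tophat2 as the mapper and the submitters' processing notes HISAT2 (2.1.0), so the mapper is uncertain. The authors deposited raw fragment counts per Ensembl gene from featureCounts, which counted fragments mapping to several places, so genes with near-identical copies are less certain, and no strand option is named. Starting from these counts, edgeR (4.0.16; TMM, filterByExpr, quasi-likelihood test) and DESeq2 (1.42.0; Wald test) were run in R (4.3.3) on the whole table, with Benjamini-Hochberg adjustment over all genes tested. Adjusted p-values and log2 fold changes given are those of edgeR. Each line was fitted on its 8 libraries, and the interaction and the comparisons between lines on all 16. Single genes were also tested by exact two-sided permutation of log2(FPM + 1). All 47 members passed the filter in NRK-52E and 46 in NRK-49F. Pairs of libraries within a group differed by more than sampling noise (chi-square per degree of freedom from 5.15 to 74.4). The scripts were tested on simulated data. The members and lists were chosen with earlier results of these data known. Values by library are given for the 2 members of each role and line with the largest and the 1 with the smallest absolute log2 fold change, and for Mki67, Pcna, Ccnd1 and Ccnb1 (E2f1, also chosen, has no entry). Ccnd2 (in NRK-52E) and Cdkn1a are also given by library, outside this rule. From the other lists the 2 called genes that rose and the 2 that fell most in each line are named. Other genes named were chosen after their values were seen. The number in the column names served only as a covariate or split in alternatives. Alternatives changed the scaling, filter, test, threshold and libraries. Those of scaling and the likelihood-ratio test were run in edgeR only and kept the main DESeq2 fit.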

Additional observations from a re-analysis of the deposited data

Results flagged for a closer look

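A library lay far from the other 3 of its group in 6 of 104 groups of values looked at, where chance alone gives about 5.2 (1 in 20). In acidotic NRK-49F this was N16 for Ccnb1 (14.1 FPM, the others 6.07 to 6.83), Top2a (90.5 FPM, the others 37.5 to 45.9) and the score of mitosis genes (0.21, the others -0.58 to -0.47). In acidotic NRK-52E it was N4 for E2f8 (1.84 FPM, the others 0.943 to 1.08) and for the score of the transcription factors (-0.16, the others -0.50 to -0.46). In control NRK-52E it was N1 for Ccne1 (11.6 FPM, the others 10.47 to 10.65).

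The pH effect differed between the cell lines, by the interaction test, for 12 of the 22 members given by library under the rule above, which leaves out Ccnd2. The share of all genes tested was 36.9%, and most of the 22 had been chosen for the largest or smallest pH effects. The effect in NRK-52E less that in NRK-49F, on the log2 scale, was -2.08 for Mcm7, -2.63 for Mcm3, -0.91 for Rfc3, -1.56 for Fen1 and -1.60 for Pola1. It was -2.64 for Mki67, -0.95 for Mad2l1 and -1.20 for Top2a, -1.34 for Ccne2 and -1.26 for Cdk6, and -2.74 for E2f8 and -1.89 for Foxm1.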

How the results depend on the processing

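The counts of members called in the interaction and between the lines stayed within 1.5 times of their values under all alternatives run: 25 to 32 for the interaction, 27 to 35 between lines at pH 7.4 and 25 to 34 at pH 6.0. Within numbers, fits of 4 libraries, the counts for pH were 28 and 11 in NRK-52E (numbers 21 and 22) and 26 and 6 in NRK-49F (20 and 21), against 38 and 18, and the cause was not tested. Leaving out each library gave 31 to 40 in NRK-52E and 11 to 22 in NRK-49F. With library totals as the only scaling the median of all genes in NRK-52E shifted to -0.21, and the medians of replication, mitosis and G1 control genes were -0.98, -1.04 and -0.0208, which relative to that shift are -0.77, -0.84 and 0.19. The mitosis median in NRK-52E was -0.68 within number 22 and the G1 control median in NRK-49F 0.10 within number 21; the cause was not tested. Without each library in turn the medians in NRK-49F ran from 0.54 to 0.91 (replication), -0.43 to 0.11 (mitosis) and 0.16 to 0.33 (G1 control). In NRK-52E they ran from -0.84 to -0.72, -0.90 to -0.75 and 0.14 to 0.21. The counts of the other pathway lists under other scalings and without N16 were chosen after seeing the data. For 41 named genes, 1228 of 1312 values under alternatives kept their side of the threshold, 68 lost the call (31 within a number, 34 without a library), 16 gained it (5 and 4) and none was called in the opposite direction. Among the 1228, some values that were not called changed sign, as for Pola1 in NRK-49F (-0.38 to 0.44). No paired analysis of single libraries was possible because the groups share no replicate numbers. The pH groups of a line do share the number in the column names, and with it as a covariate the counts for pH were 37 and 22. The labels do not say whether libraries of NRK-52E and NRK-49F came from the same co-cultures. The fits of all 16 libraries treated them as independent. Ccnd2 had at most 7 counts in a NRK-49F library, where it was not tested.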
